A study of Homo sapiens with 10 samples.

Results

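The sites described here are the intervals of the genome that carried a ZEB1 peak in untreated MDA cells and again after 24, 48 and 72 h of eribulin. An interval of the deposited consensus set was taken as such a shared site when it overlapped, by 1 base or more, a peak in each of the 4 deposited peak lists. This held for 12793 of 52981 consensus sites (24.1%). The peak calls of these same libraries chose the sites, so their peaks and counts are given as a description, with no test. The members were thus chosen by the caller's peaks, and the counts come from the same reads.

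ZEB1 was mapped by CUT&RUN, in which an antibody brings a nuclease to the DNA a protein occupies and the released fragments are sequenced. The line is labelled MDA and Er-/Pr-/Her2-, a breast cancer line without the 3 receptors that guide treatment. Cells of this line were left untreated or received 300 nM eribulin (spelled erubilin on the treated samples) for 24, 48 or 72 h, with 2 ZEB1 libraries in each condition. The treated samples carry the line name MDA_ERI and the untreated ones MDA_Parental. What else this difference stands for, and how long untreated cells were cultured, is not stated, so exposure cannot be told apart from it or from time in culture. A further 2 IgG libraries of untreated cells were not analysed here. The sample descriptions also mention Tn5 fragmentation, although the stated assay cuts DNA with another enzyme.

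ZEB1 is a zinc finger transcription factor of the epithelial-mesenchymal transition. It binds E-boxes of the form CACCTG, represses genes of cell junctions and polarity and the miR-200 microRNAs, and is itself a target of those microRNAs. With AP-1 and YAP it can also activate genes. Eribulin binds microtubule ends and arrests cells in mitosis.

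At the shared sites, the counts of both libraries of a condition agreed within sampling noise, with a chi-square per degree of freedom between 0.844 and 0.887, where sampling alone gives about 1. They were therefore counted as 1 sample, and no value below has a check between cultures. Levels are counts of the pooled pair scaled to library size (CPM) with TMM factors, so they place each site relative to the rest. A site is called lower or higher when its level lies at least 2-fold from control (a log2 change of 1, after a prior count of 2). Intervals are 95% binomial intervals and cover counting error only. Totals in all consensus sites ran from 1130706 to 3561455 counts per library, lowest at 72 h.

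Promoters of shared sites are shown first, because the results below divide by the E-box in them. The window searched spans 250 bases before to 50 after a RefSeq start (GRCh38.p14). Only the 250 bases before the most upstream start are printed, 5′ to 3′ on the gene's strand. Capitals mark the ZEB1 E-box, CACCTG or its reverse complement CAGGTG. The first 5 promoters hold the motif and the last 3 do not. They were chosen after their values were seen. The picks are epithelial genes or a promoter with many E-boxes, against promoters whose signal hardly moved and the epithelial gene JUP. Promoters not printed go both ways. RABIF holds the motif 212 bases before its start and hardly moved, with log2 changes of 0.06, 0.01 and -0.02 at the 3 times. CLDN4 has no E-box in its window and was lower at 24 h (-1.07). DUS4L, with E-boxes, was lower at 24 h (-1.44), and CTNS, without one, hardly moved (-0.01, 0.07 and 0.07). The printed set is thus no measure of how the motif goes with the change.
PATJ, chr1:61742230-61742479, plus strand: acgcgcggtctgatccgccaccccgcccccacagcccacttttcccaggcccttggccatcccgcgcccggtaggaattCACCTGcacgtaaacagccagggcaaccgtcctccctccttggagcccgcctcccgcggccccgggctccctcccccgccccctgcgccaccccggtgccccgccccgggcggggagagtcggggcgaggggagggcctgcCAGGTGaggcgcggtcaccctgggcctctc
DSG2, chr18:31497927-31498176, plus strand: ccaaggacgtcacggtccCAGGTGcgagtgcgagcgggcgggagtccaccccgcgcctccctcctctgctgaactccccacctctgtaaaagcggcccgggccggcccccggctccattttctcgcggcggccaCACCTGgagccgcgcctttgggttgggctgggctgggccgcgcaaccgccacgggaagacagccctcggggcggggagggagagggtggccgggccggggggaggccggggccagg
DSP, chr6:7541421-7541670, plus strand: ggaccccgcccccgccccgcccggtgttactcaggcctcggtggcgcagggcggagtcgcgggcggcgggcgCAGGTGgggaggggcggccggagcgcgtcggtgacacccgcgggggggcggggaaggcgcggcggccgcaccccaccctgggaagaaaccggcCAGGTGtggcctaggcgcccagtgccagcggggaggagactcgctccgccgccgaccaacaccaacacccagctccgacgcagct
ELF3, chr1:202010337-202010586, plus strand: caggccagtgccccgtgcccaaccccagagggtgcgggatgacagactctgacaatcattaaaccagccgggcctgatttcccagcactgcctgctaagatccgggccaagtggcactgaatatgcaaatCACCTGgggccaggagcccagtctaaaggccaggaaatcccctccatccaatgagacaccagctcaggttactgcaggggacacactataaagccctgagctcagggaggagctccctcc
PRKCZ, chr1:2050161-2050410, plus strand: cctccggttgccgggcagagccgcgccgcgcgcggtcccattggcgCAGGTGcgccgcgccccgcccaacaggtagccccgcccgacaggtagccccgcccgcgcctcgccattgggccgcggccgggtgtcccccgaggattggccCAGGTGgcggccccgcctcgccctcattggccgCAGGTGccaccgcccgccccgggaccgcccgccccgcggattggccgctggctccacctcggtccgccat
JUP, chr17:41786712-41786961, minus strand: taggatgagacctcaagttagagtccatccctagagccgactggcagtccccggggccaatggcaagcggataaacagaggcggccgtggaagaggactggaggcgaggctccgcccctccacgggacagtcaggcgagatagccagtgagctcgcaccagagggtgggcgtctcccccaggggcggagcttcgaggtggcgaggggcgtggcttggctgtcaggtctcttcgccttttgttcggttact
ZBTB26, chr9:122931513-122931762, minus strand: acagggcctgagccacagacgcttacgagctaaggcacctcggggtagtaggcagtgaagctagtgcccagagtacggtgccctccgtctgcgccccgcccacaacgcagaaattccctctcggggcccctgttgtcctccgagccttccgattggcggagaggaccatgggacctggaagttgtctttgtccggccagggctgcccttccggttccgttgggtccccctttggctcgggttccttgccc
DESI1, chr22:41621044-41621293, minus strand: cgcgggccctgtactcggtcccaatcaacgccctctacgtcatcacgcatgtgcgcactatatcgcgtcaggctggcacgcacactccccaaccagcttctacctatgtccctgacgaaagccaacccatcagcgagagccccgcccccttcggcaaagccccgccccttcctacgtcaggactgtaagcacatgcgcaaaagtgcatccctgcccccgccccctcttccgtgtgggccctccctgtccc
PATJ encodes a polarity scaffold of tight junctions. DSG2 and DSP encode a desmosomal cadherin and desmoplakin, ELF3 an epithelial ETS factor, PRKCZ an atypical protein kinase C of the polarity machinery, and JUP plakoglobin. ZBTB26 is a zinc finger protein and DESI1 a protein linked to SUMO removal.

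Shared sites were wide and strong. Their median width was 431 bases (123 to 3247), against 189 bases for the other consensus sites, and they covered 40.2% of all consensus bases. The median level in untreated cells was 34.1 CPM. After 24 h it was 32.9 CPM, and it was 34.4 CPM at both later times. The share of consensus counts inside them was 58.4% and 58.6% in the control libraries and 56.6% in both 24 h libraries. It was 60.04% and 60.2% after 48 h, and 60.5% and 60.7% after 72 h. The shared sites thus held most of the consensus counts in every library, with the lowest share at 24 h.

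The rule's edge lay in the treated lists. The weakest peak of a shared site was the one at 72 h for 7397 sites, the 48 h peak for 3732, the 24 h peak for 1507 and the control peak for 157. The smallest overlap with a peak was 1 base, and 148 sites had an overlap under 50 bases. Just outside the rule, 6839 sites had a peak in 3 conditions, 4318 of them lacking it at 72 h only. Their median control level was 16.04 CPM, against 19.4 CPM for the 1000 shared sites with the weakest peaks.

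The caller's fold enrichment at the shared sites was lower at each later time. The median fold enrichment that the authors' peak caller gave them was 13.97 in control and 10.3, 7.86 and 7.16 at the successive times. Counts of replicate 1 in these sites, divided by the background floor recovered from the caller's columns, were 47.5%, 38.5% and 36.9% of control at the 3 times. Whether the caller was given the IgG libraries is not stated, so the floor may not stand for each library's own background. An effect of sequencing depth on these values was not tested. The changes that follow are relative to the other sites: scaling to that floor moves the median log2 change of the shared sites to -0.98, -1.38 and -1.44, against -0.05, 0.02 and 0.03 with TMM.

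Most shared sites kept their place relative to the others. Of all 12793 shared sites, 9728 (76.0%) stayed within 2-fold of control at every time. Over the 4 conditions the level of 8953 (70.0%) spanned less than 2-fold. Neither count was taken over all tested sites. The filter on low counts kept 12792 shared sites. At 24 h, 1209 of these (9.45%) were lower and 915 (7.15%) higher. The background over all 46436 tested sites was 12.7% lower and 14% higher. At 48 h, 271 (2.12%) were lower and 734 (5.74%) higher, beside 7.24% and 10.5% of all tested sites. At 72 h, 372 (2.91%) were lower and 1082 (8.46%) higher, beside 8.5% and 12.4%. Scaled to library totals in place of TMM, 957 shared sites were lower and 1163 higher at 24 h, and against the background floor 6198 were lower and 55 higher. The rule used these libraries, so nothing is read from the distance to the background.

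**Figure D1:**
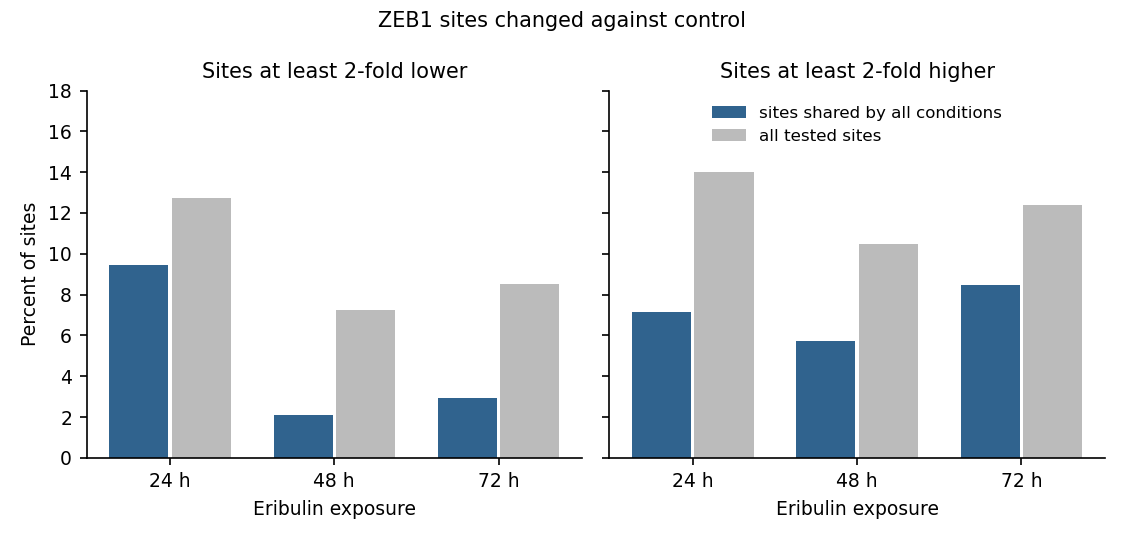
Percent of sites at least 2-fold lower (left) or higher (right) than control at each exposure time, for the 12792 tested shared sites (blue) and all 46436 tested sites (grey). At 24 h 9.45% of the shared sites were lower and 7.15% higher, and at 72 h 2.91% were lower and 8.46% higher.

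Courses over the 3 times were counted for shared sites only, so no share over all tested sites stands beside them. The commonest course among sites that moved was a level lower at 24 h alone, at 912 sites. Another 440 were higher at 24 h alone, 360 higher at 72 h alone, 306 higher at 48 and 72 h, and 304 higher throughout. Only 108 were lower at all 3 times. With TMM, lower sites were thus most numerous at 24 h and higher sites at 72 h. With library totals higher sites were most numerous at 24 h (1163, 719 and 1041 at the 3 times), and against the background floor lower sites were fewest at 24 h (6198, 9788 and 9764).

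Shared sites lay more often at gene starts than sites with a peak in fewer conditions. Here and in the gene lists, both ends stood in for the start of 11388 genes without a listed one (4194 of them protein-coding). The starts counted thus include 3′ ends of genes. A start was within 1 kb of the midpoint of 41.7% of the shared sites, against 27.6% of all consensus sites, 26.9% of the sites with peaks in control and at 24 h only, and 18.3% of those with a peak in control only. Signal strength differs between these sets, so the shares were also taken within 5 bands of control CPM. Each band holds an equal part of the consensus sites with a peak in control. In the highest band (above 29.8 CPM) the shares were 42.9%, 22.2% and 16.2% for the shared, control and 24 h only, and control only sites. In the middle band they were 38.3%, 27.4% and 17.2%. The order was not kept in the 2 lowest bands. The shares were 26.7%, 27.4% and 16.5% in the one that held 382 shared sites, and 14.6%, 26.7% and 20.9% in the lowest, which held 96.

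**Figure D2:**
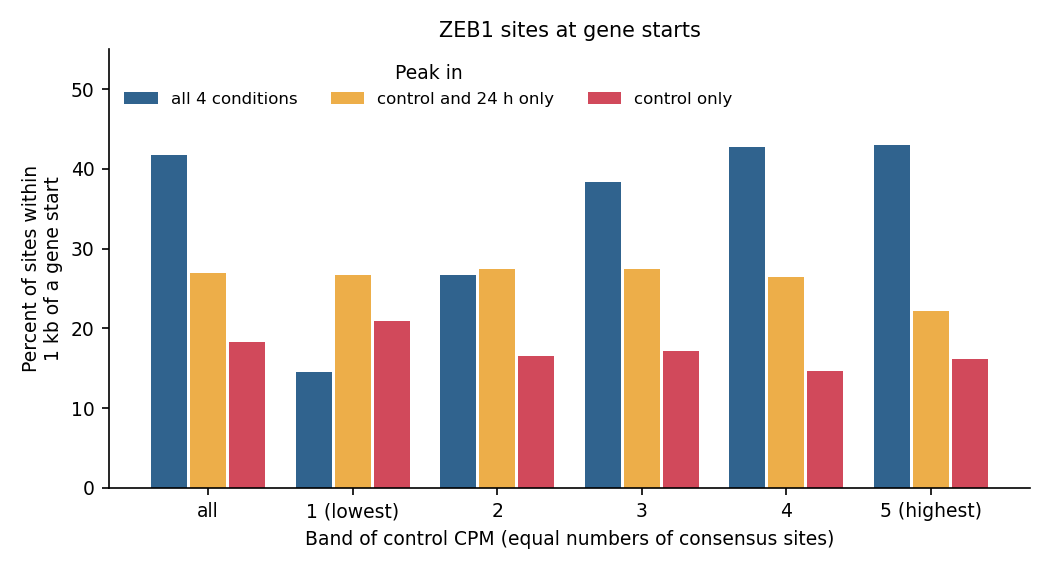
Percent of sites whose midpoint lies within 1 kb of a gene start, over all sites and in 5 bands of control CPM, for sites with a peak in all 4 conditions (blue), in control and at 24 h only (orange) and in control only (red). For genes without a listed start, both ends count as starts. The bands hold equal numbers of the consensus sites with a peak in control, not of all consensus sites. The blue bar is 41.7% over all sites and 42.9% in the highest band, and is the shortest of its group in the lowest band.

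Sites at starts were also called least often, among the shared sites as among all tested sites. Of the 5338 shared sites within 1 kb of a start, 1.16% were lower and 4.20% higher at 72 h. The values were 4.75% and 10.4% for 4381 sites in gene bodies, and 3.32% and 13.1% for 3074 intergenic sites. Over all tested sites they were 3.01% and 8.46% at starts, 11% and 12.9% in gene bodies, and 10.2% and 15.5% between genes. At 24 h, 6.56% of the shared sites at starts were lower and 4.23% higher, against 12.3% and 7.78% in gene bodies and 10.4% and 11.4% between genes. Median control levels were alike in the 3 classes (34.9, 33.8 and 33.3 CPM), while sites at starts were wider (530 bases against 365 and 376).

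By chromosome, the share of consensus sites that were shared ran from 17.9% on X to 30.5% on 19. The median log2 change at 24 h was lowest on chromosome 22 (-0.54; -0.42 over all tested sites there) and highest on chromosome 4 (0.34; 0.44 over all tested sites). On both chromosomes the shared sites lay on the same side of control as all tested sites.

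Shared promoters with and without the ZEB1 E-box differed in their course. Of 5139 promoter windows at a shared site, 21.6% held CACCTG on either strand, close to 19.97% of all 22078 windows and 20.9% of windows at no consensus site. Windows at sites with peaks in control and at 24 h only held it in 9.59%, and those with a peak in control only in 20.8%. The related E-box CATCTG (reverse complement CAGATG) was in 8.15% of the shared windows and 12.2% of all. The AP-1 motif TGANTCA, with N any base, was in 4.73% and 6.16%, and the TEAD motif GGAATG, whose reverse complement is CATTCC, in 10.5% and 12.2%. The CCAAT box (ATTGG on the other strand) was in 46.6% of shared windows, 34.7% of all, and 27.1% of those with a peak in control only. No motif searched contains another, and a match does not show binding.

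At 24 h, the median change was lower the more E-boxes a promoter window held. A window needed only 1 base of overlap with the site, and the highest count over a site's windows was used. An E-box can thus lie outside the site, as at OCLN. The 2872 shared sites at windows with no E-box had a median log2 change of 0.11 (quartiles -0.29 and 0.49). With 1 E-box the median was -0.21 (825 sites), with 2 it was -0.41 (124 sites), and with 3 or more -0.50 (17 sites). Median width rose along the same 4 groups (545, 556, 599 and 703 bases). So did the median control level (34.7, 35.93, 37.55 and 42.87 CPM). An effect of either on the order by number was not tested. The quartile ranges of the change overlap. Whether all sites with the motif shifted, or only some of them, was not tested.

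By 72 h the order had turned round. The medians were -0.01 without an E-box, 0.07 with 1, 0.34 with 2 and 0.23 with 3 or more, the last over only 17 sites. At 48 h they were 0.01, 0.03, 0.12 and 0.20. Of the sites with 2 E-boxes, 72.6% lay below control at 24 h and 29.8% at 72 h. Over all 3838 shared sites at promoter windows the shares were 48.2% and 48.3%, and without an E-box 41.9% and 50.6%.

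**Figure D3:**
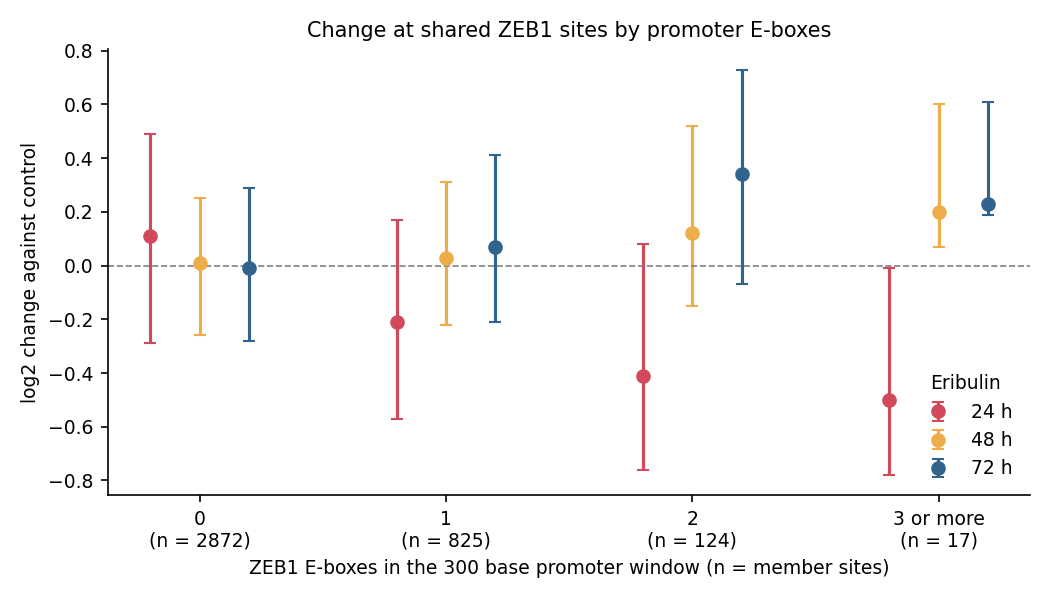
Log2 change against control at shared sites by the number of ZEB1 E-boxes in the promoter window, at 24 h (red), 48 h (orange) and 72 h (blue). Points are medians over sites, bars run from the lower to the upper quartile, and n is the number of sites: medians at 24 h go from 0.11 with no E-box to -0.50 with 3 or more, and those at 72 h from -0.01 to 0.23.

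The split appeared in each pair of libraries, but the libraries of a condition are counted as 1 sample, so this is no check between cultures. Replicate 1 at 24 h against replicate 1 of control gave medians of 0.12 without and -0.25 with an E-box, and the replicate 2 pair 0.11 and -0.26. In 3 bands of GC content, from low to high, the medians with an E-box were -0.14, -0.29 and -0.19, against 0.06, 0.11 and 0.13 without. In the stronger part of the sites (control CPM at or above the median) they were -0.47 with and -0.11 without, and in the weaker part 0.00 and 0.35. The split is not particular to the shared sites: other tested promoter sites had medians at 24 h of -0.07 with and 0.36 without an E-box.

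Seen from the called sites, an E-box stood in 91 of the 187 shared promoter sites that were lower at 24 h (48.7%), in 24.8% of those within 2-fold, and in 12 of the 167 that were higher (7.2%). At 72 h it stood in 45 of the 118 higher sites (38.1%) and in 4 of the 24 lower ones (16.7%). A single copy of CATCTG, AP-1 or TEAD went with a smaller shift at 24 h. Medians with 0 and 1 copy were 0.02 and 0.04 for CATCTG, 0.02 and 0.03 for AP-1 and 0.02 and 0.07 for TEAD. With 2 copies they were -0.42 for CATCTG (19 sites), about that of 2 ZEB1 E-boxes, -0.11 for AP-1 (16 sites) and -0.07 for TEAD (35 sites). Sites with 3 or more CCAAT boxes had medians of -0.13 at 48 h and -0.17 at 72 h, against 0.07 and 0.08 with none.

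ZEB1's own promoter was among the shared sites. The stronger of its pair of sites (chromosome 10, 31318227 to 31319092, within 1 kb of the start) measured 75.9 and 70.9 CPM in the control libraries, 54.4 and 49.0 CPM at 24 h, 118 and 105 CPM at 48 h, and 145 and 136 CPM at 72 h. Both libraries were below both controls at 24 h and above them at 48 and 72 h. The log2 change was -0.50 (-0.75 to -0.26) at 24 h, 0.60 (0.39 to 0.81) at 48 h and 0.93 (0.73 to 1.15) at 72 h. The second site (31319218 to 31319561) moved alike, at -0.78, 0.26 and 0.61. No shared site lay at either miR-200 cluster. Consensus sites next to MIR200B and MIR200C there measured 4.63 to 12.6 CPM in control and lacked a peak in at least 1 list. The one shared site within 50 kb of MIR200C and MIR141 belonged to C12orf57.

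Of 49 epithelial genes that ZEB1 is known for or that share its junction and polarity programme, 22 (44.9%) had a shared site within 5 kb of a start, against 31.6% of all protein-coding genes. Their 26 sites had a median log2 change of -0.40 at 24 h, with 8 lower and 0 higher, 0.03 at 48 h, with 1 lower and 4 higher, and 0.27 at 72 h, with 1 lower and 5 higher. Over the 5716 shared sites near any coding gene the medians were -0.03, 0.01 and 0.03, with 419 lower and 245 higher at 24 h and 72 lower and 280 higher at 72 h. The list was composed with earlier results of these data known.

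The polarity gene PARD6B, a partner of atypical protein kinase C, carried the strongest site of the list (chromosome 20, 50730664 to 50731843, at the start). It measured 479 and 501 CPM in control, 207 and 230 CPM at 24 h, 503 and 480 CPM at 48 h, and 616 and 603 CPM at 72 h. Signal was low at 24 h only, with a log2 change of -1.16 (-1.28 to -1.05), and lay above control at 72 h by 0.32 (0.23 to 0.41). F11R, a junctional adhesion molecule, followed the same course at one site (-1.45, -0.35 and 0.38) but not at the other (0.37, 0.57 and 0.71). KRT8 and KRT18 encode the paired keratins of simple epithelia. A site within KRT8 changed by -1.27, 0.05 and 0.16, and the KRT18 site by -1.28, -0.19 and 0.26. A second site at KRT8 was still low at 72 h, at -1.05.

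DSP measured 56.2 and 66.3 CPM in control, 45.7 and 44.2 CPM at 24 h, 80.3 and 81.6 CPM at 48 h, and 115 and 106 CPM at 72 h. Its promoter, printed above with E-boxes 178 and 85 bases before the start, was below control at 24 h and above it from 48 h (log2 change 0.86, 0.63 to 1.10, at 72 h). ELF3 measured 125 and 126 CPM in control and 30.8 and 48.0 CPM at 24 h, and had come back in part by 72 h, to 79.6 and 88.9 CPM. CDH1, which encodes E-cadherin and is the classical ZEB1 target, had its shared site in the gene body (chromosome 16, 68741850 to 68742072). The site measured 26.4 and 24.4 CPM in control and 7.70 and 4.31 CPM at 24 h, a log2 change of -1.98 (-2.77 to -1.44), then 16.2 and 16.6 CPM at 48 h and 19.0 and 13.9 CPM at 72 h.

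Among the epithelial sites higher at 72 h were those of OCLN, DSG2, PATJ and PKP2, which encode proteins of tight junctions and desmosomes. DSG2, whose promoter is printed above, measured 6.95 and 8.90 CPM in control, 14.9 and 10.8 CPM at 24 h, 15.5 and 21.1 CPM at 48 h, and 23.4 and 21.3 CPM at 72 h. Each treated library lay above both controls. The log2 change at 72 h was 1.45 (0.92 to 2.1) for DSG2, 1.49 for OCLN, 1.28 for PATJ and 1.15 for PKP2. These 4 were weak in untreated cells, at 7.86 to 12.2 CPM against a median of 34.1 CPM over the shared sites. The CLDN4 site that was lower at 24 h (-1.07) and the JUP site were near control at 72 h, with log2 changes of 0.00 and 0.09.

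**Figure D4:**
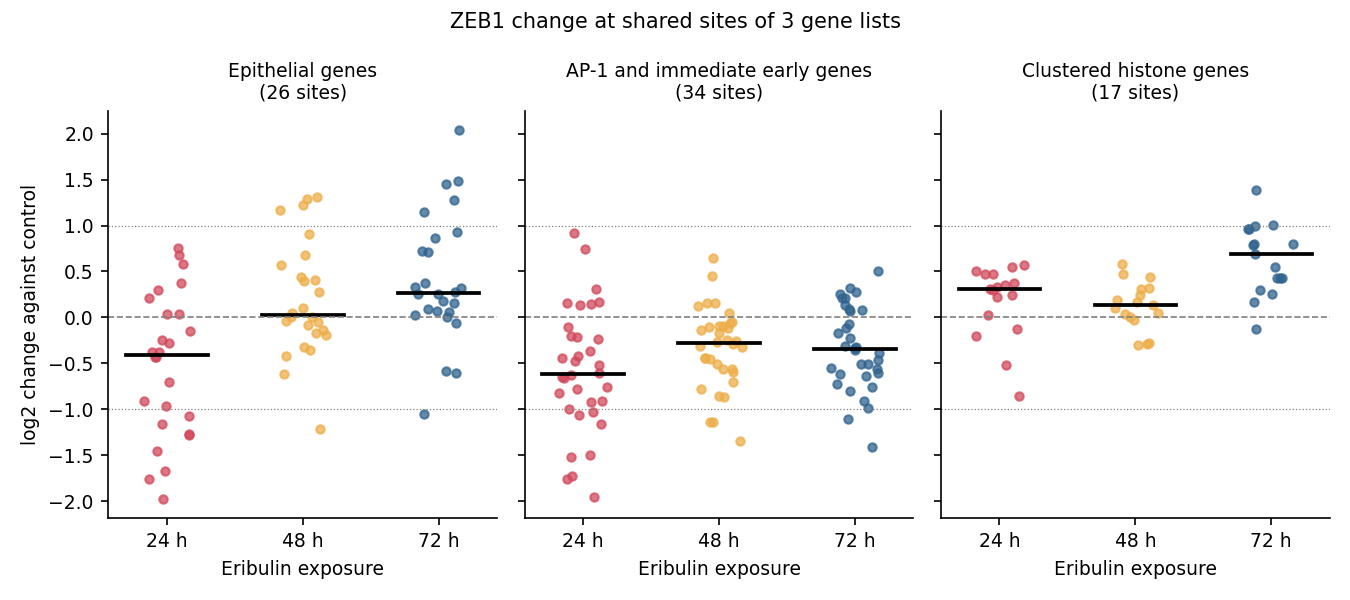
Log2 change against control of every shared site within 5 kb of a start of 49 epithelial genes (26 sites), 34 AP-1 and immediate early genes (34 sites) and 27 clustered histone genes (17 sites). For genes without a listed start, both ends count as starts. Points are sites, black bars medians, and dotted lines mark a 2-fold change: epithelial medians go from -0.40 at 24 h to 0.27 at 72 h, while those of the AP-1 list stay below 0.

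AP-1 subunits and immediate early genes, which cells switch on within minutes of a stimulus, were often bound throughout. Among coding genes with any consensus site within 5 kb, 48.0% had a shared one. Shared sites lay near 22 of the 34 AP-1 and immediate early genes (64.7%), all of which had a consensus site. Their 34 sites had medians of -0.62, -0.28 and -0.34 at the 3 times, with 9, 3 and 2 sites lower and 0 higher at any time. Of the 5716 shared sites near any coding gene, 419, 62 and 72 were lower and 245, 156 and 280 higher. The FOS promoter measured 94.7 and 100.6 CPM in control, 26.2 and 30.7 CPM at 24 h, 40.9 and 46.8 CPM at 48 h, and 33.8 and 38.9 CPM at 72 h. EGR1, a zinc finger factor of the early response, measured 206 and 207 CPM in control, then 98.0 and 86.2 CPM, 120 and 105 CPM, and 101.2 and 106 CPM. Both lay well below control in every treated library. NR4A2, an orphan nuclear receptor, was nearer to control at the later times (-1.95, -0.70 and -0.56). DUSP1, a phosphatase of MAP kinases, stayed at least 2-fold lower (-1.50, -1.34 and -1.10). The 3 sites near FOSL1, which encodes the subunit FRA1, differed among themselves. The one with the most signal in control measured 137 CPM there, 68.1 CPM at 24 h, 153 CPM at 48 h and 171 CPM at 72 h, and was called lower at 24 h. Another changed by -0.52, -0.25 and 0.21, and a site within CCDC85B by 0.31, 0.65 and 0.51.

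Of 17 transcription factors of the epithelial-mesenchymal transition, ZEB1 included, 4 held a shared site within 5 kb (23.5%, beside 31.6% of all coding genes), namely ZEB1, ETS1, FOXC2 and TCF3. Of 25 TGF-beta pathway genes 11 (44.0%) held one, and 5 of their 14 sites were lower at 24 h, beside 419 of the 5716 near any coding gene, among them BHLHE40, a repressor of the circadian and stress response (-1.73, -1.03 and -1.20), and LTBP3, which binds latent TGF-beta (-1.75, -0.88 and -0.83). TGFBR1, the type I receptor, went the other way (1.36, 0.88 and 0.58). Among ZEB1 cofactors 6 of 19 (31.6%) held a shared site, and 3 of their 7 sites were higher at 24 h, beside 245 of 5716. These were the sites of the acetyltransferase EP300 (1.32), the methyltransferase EZH2 (1.25) and the signal transducer SMAD3 (1.44). EZH2 measured 22.6 and 15.8 CPM in control, 50.3 and 43.6 CPM at 24 h, 22.4 and 21.1 CPM at 48 h, and 28.6 and 25.9 CPM at 72 h, so both libraries lay above both controls at 24 h, and by less at 72 h. Among genes with any consensus site within 5 kb, 33.3% of the 17-gene list, 47.8% of the TGF-beta genes and 33.3% of the cofactors held a shared one. Of all coding genes with any such site, 48.0% did.

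Clustered histone genes, which are transcribed in S phase, held shared sites within 5 kb most often of the 15 lists: 20 of 27 genes (74.1%), some of which lie near each other and share a site. Within 1 kb they did so in 51.9%, under the tubulin and mitosis (52.8%) and housekeeping (52.6%) lists. Their 17 sites had medians of 0.31, 0.14 and 0.69, with none lower at any time and 2 higher at 72 h, at H3C10 (1.39) and H4C14 (1.01), beside 280 of 5716. At 72 h 16 of the 17 lay above control, beside 2989 of the 5716 shared sites near any coding gene. Near-identical histone genes can share reads, so values of single genes are uncertain. Among tubulin and mitosis genes, the pathway eribulin acts on, 21 of 36 (58.3%) held a shared site, with medians of 0.08, -0.08 and -0.05 over 24 sites. TUBB, a beta-tubulin, hardly moved at its strongest site (-0.15, -0.19 and -0.08). MAPRE3, which binds growing microtubule ends, was lower at 24 h at both its sites (-1.71 and -1.28).

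The remaining lists lay between 55.3% and 15.2%. Shared sites were near 55.3% of 38 housekeeping genes, 34 of 68 ribosomal protein genes, 12 of 24 YAP and TEAD genes, and 47.8% of 23 p53 and arrest genes. They were near 9 of 25 interferon and innate genes, 11 of 34 mesenchymal effectors and 7 of 25 chromatin regulators. Of 33 lineage genes thought to be silent in this line, 5 (15.2%) held one, APOA1, CD3E, CDH5, MBP and SPI1. The mesenchymal effectors with one were ACTA2, CAV1, CAV2, CD44, COL1A1, FLNA, ITGAV, LOX, THBS1, TPM1 and VCAN. Their share of that list was 32.4%, beside 31.6% of all coding genes. Among genes with any consensus site within 5 kb the shares were 40.7% and 48.0%. Vimentin, fibronectin and N-cadherin (VIM, FN1 and CDH2), markers of the mesenchymal state, were among the mesenchymal effectors with no shared site within 5 kb.

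Some of the strongest shared sites were lowest at 24 h. SPATC1L had the largest change at that time among the 45 sites that exceeded 500 CPM in any condition. Its site at the start (chromosome 21, 46184432 to 46185209) measured 622 and 641 CPM in control, 88.3 and 82.4 CPM at 24 h, 566 and 554 CPM at 48 h, and 849 and 871 CPM at 72 h. The log2 change at 24 h was -2.88 (-3.05 to -2.72). PEG10, an imprinted gene derived from a retrotransposon, went from 647 and 663 CPM to 146 and 155 CPM at 24 h, 461 and 494 CPM at 48 h, and 590 and 645 CPM at 72 h. The site nearest to MIR21, a microRNA abundant in tumours, changed by -1.78, -0.99 and -0.23. These 3 were picked after their values were seen.

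**Figure D5:**
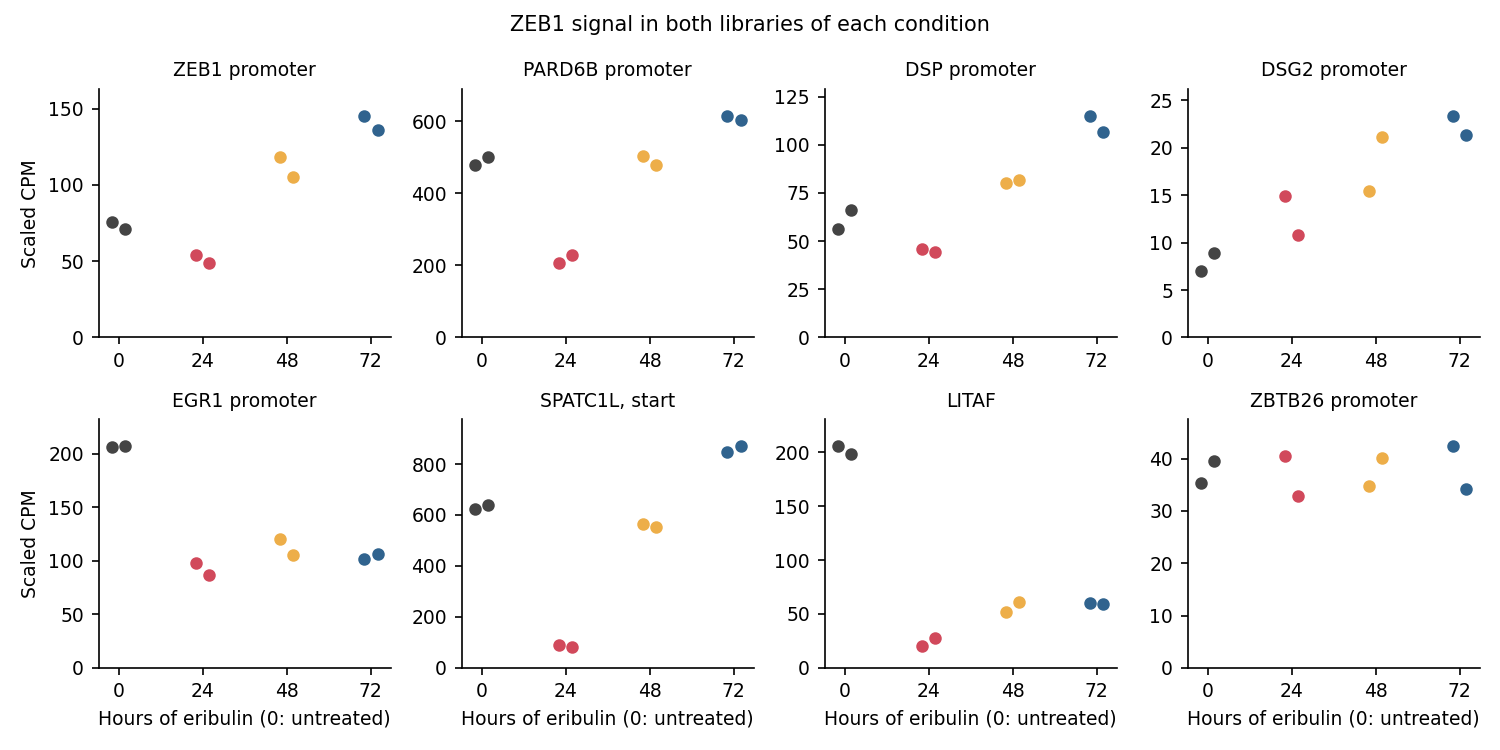
Scaled CPM at 8 shared sites in untreated cells (0 h, grey) and after 24, 48 and 72 h of eribulin, with 1 point per library and every axis starting at 0. ZEB1, PARD6B, DSP and SPATC1L are lowest at 24 h and highest at 72 h, DSG2 is higher than control at each time, EGR1 and LITAF stay below control, and ZBTB26 is level.

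By the size of the change at 72 h, the 8 lowest among the stronger shared sites had log2 changes of -2.03 to -1.76. Both sites flanking FOS (chromosome 14, 75258823 and 75293922) stood at -2.03. LITAF, which encodes a protein of endosomal sorting, measured 206 and 198 CPM in control, 20.5 and 27.5 CPM at 24 h, 51.8 and 61.2 CPM at 48 h, and 59.7 and 59.2 CPM at 72 h. The others lay in TEAD1 (-1.96), the DNA-binding partner of YAP, in ITPR1 (-1.79), a calcium channel of the endoplasmic reticulum, and nearest to TOMM20 (-1.94), CYP1B1 (-1.85) and MIR6079 (-1.79). The distances to the last 3 genes were 153525, 72551 and 19876 bases.

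The 8 highest at 72 h had log2 changes of 2.59 to 2.89, and several lie in sequence present in many copies. The highest, nearest to the histone gene H2BC13 (chromosome 6, 27668596 to 27669156), measured 19.1 and 25.4 CPM in control, 94.4 and 94.3 CPM at 24 h, 104 and 91.4 CPM at 48 h, and 172 and 161 CPM at 72 h. This site lay 139053 bases from the H2BC13 start. A pair of sites lay in DUX4, the gene of the subtelomeric D4Z4 repeat, and 1 each nearest to FRG2B (2.71), KCTD2 (2.59) and MIR8078 (2.59). The FRG2B site was intergenic, 136695 bases from the start of that gene. The last 2 of the 8 sites lay in TTC34 (2.68 and 2.65), with MMEL1 the nearest start. The larger DUX4 site went from 637 and 629 CPM in control to 4056 and 3766 CPM at 72 h. Where reads that fit several copies were placed is not given in the sources used here, so the copy bound is uncertain.

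The same holds for the ribosomal RNA genes on chromosome 21, which gave 8 of the 10 strongest shared sites. The 18 shared sites there held 3.28% of the control counts in shared sites, and 3.96%, 5.35% and 2.91% after 24, 48 and 72 h. Their median log2 change was 0.12, 0.88 and -0.01, so the median stood well above control at 48 h but not at 72 h. The densest 100 kb of the genome, with 25 shared sites beside the centromere of chromosome 4 (nearest gene CWH43), had medians of 1.33, 0.86 and 1.09. Other dense windows lay at CCDC200 and TMEM106A on chromosome 17 (16 sites), SMNDC1 on chromosome 10 (12) and FLOT1, IER3, MDC1 and TUBB on chromosome 6 (10).

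The most level of the stronger shared sites were found at ordinary genes. ZBTB26 measured 35.3 and 39.6 CPM in control, 40.5 and 32.9 CPM at 24 h, 34.8 and 40.02 CPM at 48 h, and 42.4 and 34.2 CPM at 72 h. The libraries of each condition overlapped those of control. A site in the body of EGFR, the epidermal growth factor receptor, gave log2 changes of 0.04, 0.05 and -0.01, with intervals within 0.40 of 0. The other 6 were at ST3GAL3, CRISPLD2, ANKRD36, CTNS, DESI1 and RABIF, none beyond 0.08 from control.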

How the data were processed

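Read processing was the submitters': their processing notes list, in no order, MACS2 2.1.1, Bowtie2 2.2.6, the build hg38, featureCounts, Picard, deepTools, cutadapt 2.4, bedtools 2.30.0 and bcl2fastq 2.20.0.422. The authors deposited whole-number counts per consensus site and library, not normalized. Whether these are reads or fragments, and how reads fitting several places were treated, is not given in the sources used here. For each condition the authors deposited 1 peak list with fold enrichment (a ratio) and -log10 p and q of the caller. Its peak names carry replicate 1, and how the replicates were combined is not stated.

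Merging the 4 lists, contigs outside the assembled chromosomes removed, gave the same 52981 intervals as the deposited consensus. Overlaps were taken with bedtools 2.31.1. Pooled counts were scaled with TMM (edgeR 4.0.16), filterByExpr kept 46436 sites, and edgeR's quasi-likelihood test with Benjamini-Hochberg adjustment served as an alternative, as did DESeq2 1.42.0 size factors. The background floor is the lowest expected pileup that recurs when each peak's fold and p are solved with the caller's Poisson model, an assumption about how those columns were made. The fold and floor steps recovered known values in simulated data. No simulated peak lay below the floor, so that run does not test the floors of the real lists. In those, 20, 17, 17 and 13 peaks lay at the floor in control and at 24, 48 and 72 h. The lowest solved value at 72 h was 0.0372, below the floor used there (0.569). Starts came from the RefSeq promoter and microRNA tables (GRCh38.p14) for 28865 genes, and 11388 genes without a start there were placed by both ends. All 477 list symbols were matched.

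Sites are named by rule: the 10 strongest, the 8 most level, the 8 lowest and 8 highest at 72 h among sites above the median level, up to 3 strongest per gene list, the 5 densest windows of 100 kb, and ZEB1 and the miR-200 clusters. Others named are list members or are said to be chosen by value. One result is not reported here. The members, lists and tests were chosen with earlier results of these data known. Same-numbered libraries did not deviate together (correlations of -0.0046 to 0.0139).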

Additional observations from a re-analysis of the deposited data

How the results depend on the processing

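The number of shared sites was 12091 with peaks of q 0.001 or less and 8793 with equally long lists of the strongest peaks, but 6482 when peaks of each list had to cover at least 50% of the site. Scaling to the background floor turned nearly all called sites lower: 6198 lower and 55 higher at 24 h, 9788 and 63 at 48 h, 9764 and 30 at 72 h. It also reversed the IRF7 promoter site, from 1.00 at both 48 and 72 h to -0.40 and -0.48. Library totals, DESeq2 size factors, a prior count of 0.5, no filter and edgeR kept each of the 6 counts of called sites within 1.5 times its main value, and at 24 h library totals changed the share of lower among called sites from 56.9% to 45.1%. With the replicate block, edgeR called 1251 lower and 962 higher at 24 h, against 1249 and 957 without it. The replicate numbers did not pair the libraries.

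Without each replicate in turn, the E-box difference in median log2 change was -0.37 to -0.36 at 24 h, 0.04 to 0.06 at 48 h and 0.10 to 0.13 at 72 h. The libraries of a condition are counted as 1 sample, so these ranges are no check between cultures. Under the 3 other scalings and the lower prior count it stayed at -0.36 to -0.35 at 24 h. These alternatives to the E-box difference were chosen after seeing the data. Without sites above 500 CPM, of which 45 were shared and 15 of these lay at the ribosomal RNA genes, the share of counts in shared sites was 57.3% in control, then 54.96%, 57.9% and 58.95% (an alternative chosen after seeing the data). A start lay within 3 kb of 48.6% and within 5 kb of 54.3% of shared sites, and the start of a protein-coding gene within 1 kb of 36.7%. Of all protein-coding genes, 26.5% had a shared site within 1 kb and 58.6% within 50 kb, so the shares of the lists hold for 5 kb only. These counts alone do not show whether total ZEB1 binding changed. At 72 h the median shared site held 77 counts, which limits small changes there.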
